A study of Mus musculus with 9 samples.

Results

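The genes described here are 10 genes of the pre-B cell receptor and of the early B cell programme: Vpreb1, Vpreb2, Vpreb3, Igll1, Cd79a, Cd79b, Blnk, Ebf1, Pax5 and Rag1. They were taken by name from 43629 Ensembl gene identifiers measured by RNA-seq in mouse bone marrow, and 10 of 10 were found in the table and passed the filter on low values. The cells were selected from marrow by magnetic beads against c-KIT (CD117), the stem cell factor receptor of blood stem and progenitor cells. There were 3 groups with 3 libraries each, all from C57BL/6 mice treated with pIpC, a synthetic double-stranded RNA that switches on Cre recombinase from the interferon-responsive Mx1 promoter. The first group was wild type (WT), with no further allele named. The second (KI) carried Mx1-Cre and Cbfb+/56M, a Cre-dependent allele of the fusion gene CBFB-MYH11 of human acute myeloid leukaemia. The third (KI_Chd7del) carried Chd7f/f, Mx1-Cre and Cbfb+/56M, with both copies of Chd7, which encodes a chromatin remodelling enzyme, floxed and thus open to Cre. The Mx1 promoter responds in many cell types. Cre is named for both knock-in groups and not for WT, so WT differs from them in Cre as well as in the fusion. The labels give no age, and they do not say if each library is a mouse of its own. The p-values below therefore measure the spread between these libraries, which may be technical.

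B cells arise in the marrow from lymphoid progenitors through pro-B and pre-B stages. EBF1 and PAX5 are transcription factors that start and fix B cell identity, and RAG1, with its partner RAG2, cuts DNA during V(D)J recombination, which assembles the immunoglobulin genes. Once a heavy chain has been made, it is tested at the cell surface with a surrogate light chain, formed by a VpreB protein and the product of Igll1. This pre-B cell receptor signals through CD79A and CD79B, which carry the tyrosine motifs, and through the adaptor BLNK, which couples the kinase SYK to downstream enzymes. A fraction of early B cell precursors carries c-KIT, so their transcripts can be met in a c-KIT+ selection. CBFB is the partner of the RUNX transcription factors, which act in B cell as well as in myeloid development.

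Values are normalised read numbers per gene, as deposited. Their totals, in units of 1 M per library, were 43.2 to 46.2 for WT, 37.7 to 39.0 for KI and 37.5 to 38.1 for KI_Chd7del. Chd7 was 3471, 3745 and 3982 in WT libraries 1 to 3, 1979, 2934 and 2009 in KI, and 1862, 1794 and 1921 in KI_Chd7del. The value covers the whole gene, not the floxed part, and the difference of KI_Chd7del from KI was -0.29 on the log2 scale (SE 0.14, limma adjusted p = 0.121). Myh11, of which the fusion contains a part, was 5 to 9 for WT, 176 to 219 for KI and 164 to 187 for KI_Chd7del. Kit, the marker used for the selection, was 7354 to 7797 for WT, 3226 to 3868 for KI and 6131 to 8508 for KI_Chd7del. The KI libraries therefore differed from both other groups in the selection marker itself (log2 difference of KI from WT -1.09, SE 0.11, limma adjusted p = 3.88e-05, and of KI_Chd7del from KI 1.07, SE 0.11, limma adjusted p = 0.000212). The share of neutrophil markers in the total was 10.4% to 12.2% for WT, 0.44% to 1.99% for KI and 3.59% to 4.62% for KI_Chd7del. In bulk RNA, fewer cells of a type and less RNA per cell cannot be told apart, which holds for each difference given here.

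A gene is said here to have risen or fallen at an adjusted p under 0.05. In KI against WT, 3 of the 10 genes rose (Blnk, Ebf1 and Rag1) and 0 fell by limma, where 31.8% of all tested genes rose and 27.2% fell, so that this share was near the background. No gene of the surrogate light chain and neither Cd79a nor Cd79b passed there. In KI_Chd7del against KI, 7 of 10 rose (Vpreb1, Vpreb2, Vpreb3, Igll1, Cd79a, Cd79b and Ebf1) and Blnk fell. Pax5 and Rag1 did not pass, and among all tested genes 17.5% rose and 22.9% fell. In KI_Chd7del against WT, 9 of 10 rose and 0 fell, where 24.0% rose and 24.3% fell, and Cd79a did not pass. The 3 comparisons share their groups, so they are not independent of one another. All differences are on the log2(value + 1) scale, tested by limma across 15997 genes with Benjamini-Hochberg adjustment.

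**Figure D1:**
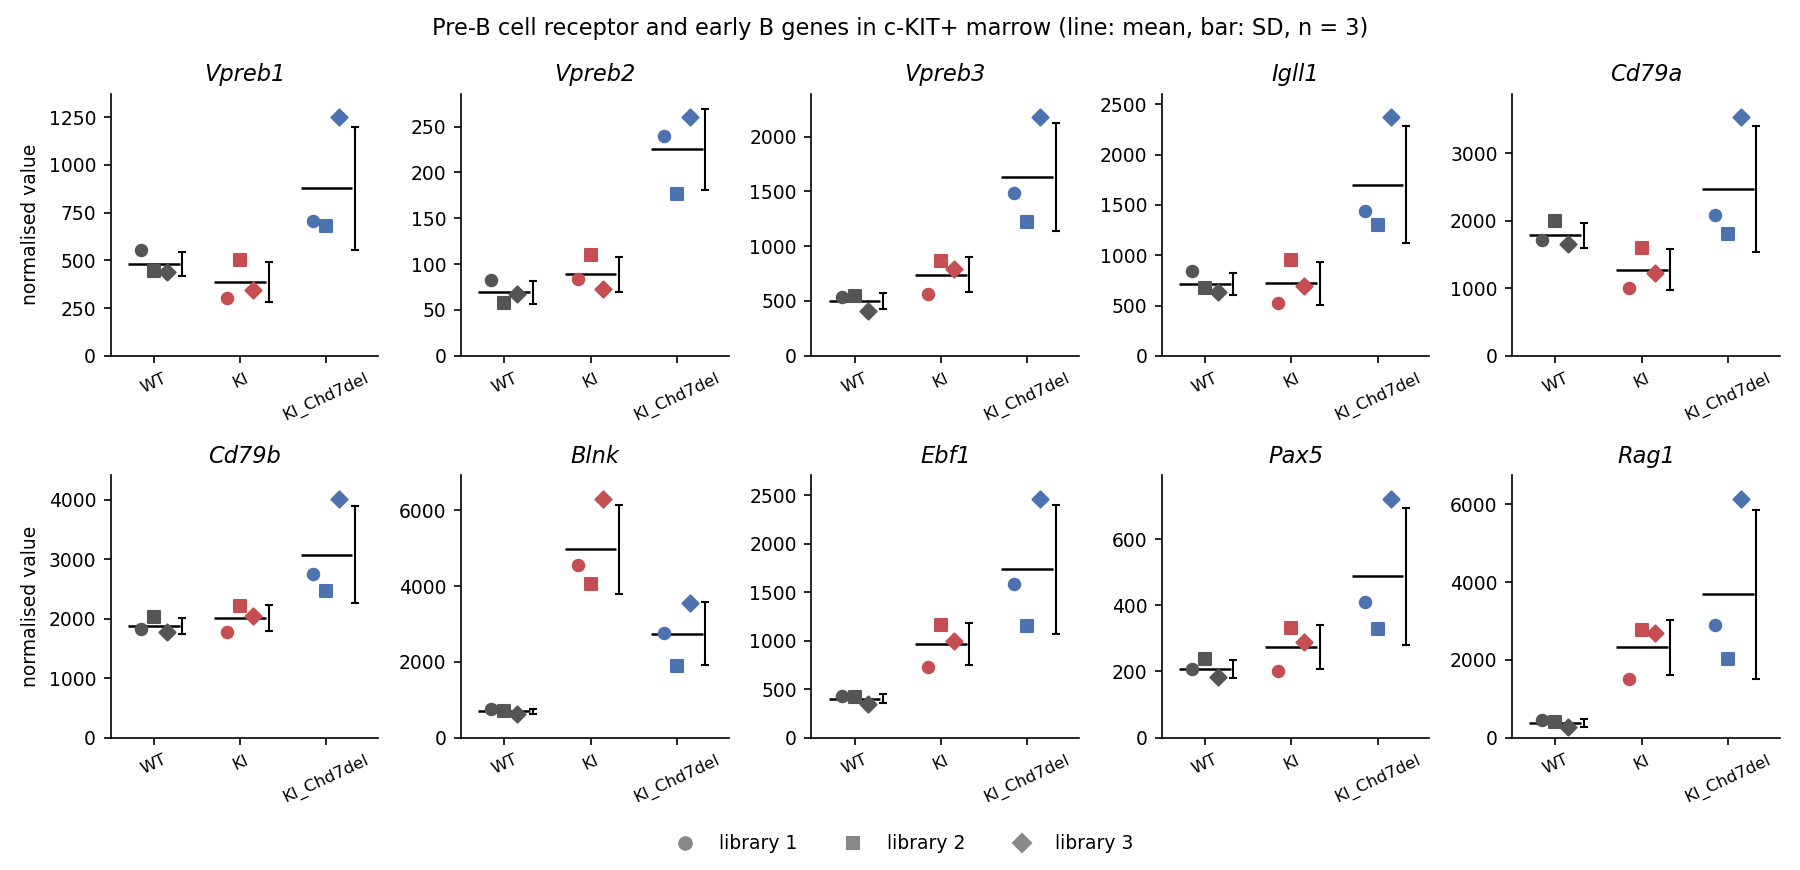
Normalised values (vertical axis, a separate scale for each gene) of the 10 genes in WT, KI and KI_Chd7del. Circles, squares and diamonds are libraries 1, 2 and 3, the line is the mean and the bar the SD over 3 libraries. In KI_Chd7del the diamond (library 3) is the highest point for 10 of 10 genes.

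The surrogate light chain genes and their relative Vpreb3 come first. Vpreb1 (ENSMUSG00000059305, GRCm38 chromosome 16, 16868403 to 16870843, minus strand) and Vpreb2 (ENSMUSG00000059280, chromosome 16, 17980428 to 17981273, plus strand) encode nearly the same variable-like protein. Their coding sequences have 426 bases each, differ at 9 positions and are 97.9% identical, and 162 of 377 windows of 50 bases of Vpreb1 (43.0%) also occur in Vpreb2. Reads from those windows fit both genes, so how reads were divided between the 2 genes is uncertain, and their values are best read together. The first 120 coding bases of each gene, from the start codon on, are shown to make this likeness visible, in lower case with the 3 positions that differ in capitals (GENCODE M21 transcripts, GRCm38):
Vpreb1: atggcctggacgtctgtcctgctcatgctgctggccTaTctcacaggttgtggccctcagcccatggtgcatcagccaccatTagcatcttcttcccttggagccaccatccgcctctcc
Vpreb2: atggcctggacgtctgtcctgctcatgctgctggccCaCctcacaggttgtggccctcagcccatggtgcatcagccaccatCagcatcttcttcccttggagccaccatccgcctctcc

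Vpreb1 was 552, 446 and 440 in WT libraries 1 to 3, 305, 503 and 346 in KI, and 707, 678 and 1249 in KI_Chd7del. WT and KI overlapped, while each KI_Chd7del library lay above all others, with library 3 far above its 2 fellows. The difference of KI from WT was -0.34 (SE 0.25, limma adjusted p = 0.274), and that of KI_Chd7del from KI was 1.16 (SE 0.25, limma adjusted p = 0.00688), a ratio of 2.24. Of the exon bases of Vpreb1, 108 also lie in Top3b on the opposite strand, and whether the counting used strand is not given in the sources used here. Top3b was 3403 to 3588 for WT, 2522 to 2865 for KI and 2836 to 3538 for KI_Chd7del.

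Vpreb2 was 83, 58 and 67 in the WT libraries, 84, 110 and 73 in the KI libraries, and 240, 176 and 260 in those of KI_Chd7del. Again the first 2 groups overlapped and KI_Chd7del stood apart above them. Its difference of KI_Chd7del from KI was 1.33 (SE 0.22, limma adjusted p = 0.00192), and from WT 1.68 (SE 0.22, limma adjusted p = 0.000322). Within a library, Vpreb2 stood at 0.13 to 0.152 of Vpreb1 for WT, at 0.211 to 0.275 for KI and at 0.208 to 0.339 for KI_Chd7del, so that both knock-in groups lay above WT in this ratio.

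Igll1 (ENSMUSG00000075370, chromosome 16, 16860671 to 16863985, minus strand) lies close to Vpreb1 and encodes the constant-like part of the surrogate light chain. It was 840, 671 and 634 in the WT libraries, 523, 948 and 698 in the KI libraries, and 1436, 1296 and 2371 in those of KI_Chd7del. The KI libraries spanned the WT range, with a difference of -0.02 (SE 0.26, limma adjusted p = 0.964), a value whose sign changes with the scaling, while every KI_Chd7del library exceeded every other. The difference of KI_Chd7del from KI was 1.22 (SE 0.26, limma adjusted p = 0.00615). Within a library the ratio of Igll1 to Vpreb1 was 1.44 to 1.52 for WT, 1.71 to 2.02 for KI and 1.9 to 2.03 for KI_Chd7del.

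Vpreb3 (ENSMUSG00000000903, chromosome 10, 75943057 to 75949657, plus strand) is a relative of the VpreB genes whose product binds immunoglobulin chains inside the cell. It was 540, 549 and 411 in the WT libraries, 560, 868 and 790 in the KI libraries, and 1488, 1224 and 2175 in those of KI_Chd7del. The 3 groups lay in this order without overlap, yet KI library 1 was only just above the highest WT library. The difference of KI from WT, 0.55 (SE 0.23), did not pass (limma adjusted p = 0.0654), while that of KI_Chd7del from KI, 1.12 (SE 0.23), did (limma adjusted p = 0.00515). The first of these passed without KI library 1 (limma adjusted p = 0.0266), KI_Chd7del library 2 (limma adjusted p = 0.0493) or KI_Chd7del library 3 (limma adjusted p = 0.0304), with the column total and in a fit of these 2 groups alone. Thus 0 of these 4 genes (Vpreb1, Vpreb2, Igll1 and Vpreb3) passed in KI against WT by limma. All 4 rose in KI_Chd7del against KI and against WT.

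The signalling chains of the receptor are shared by pre-B and mature B cells. Cd79a (ENSMUSG00000003379, chromosome 7, 24897381 to 24902197, plus strand) was 1711, 1999 and 1654 in the WT libraries, 998, 1600 and 1230 in the KI libraries, and 2084, 1799 and 3533 in those of KI_Chd7del. Each KI library was below each WT library, by a difference of -0.51 (SE 0.25) that did not pass (limma adjusted p = 0.103). Without KI library 2 it was -0.69 (limma adjusted p = 0.0481), and it also passed as lower without KI_Chd7del library 3 (limma adjusted p = 0.0257) and in a fit of these 2 groups alone (limma adjusted p = 0.0352). KI_Chd7del was above KI by 0.92 (SE 0.25, limma adjusted p = 0.0167) and overlapped WT, from which it differed by 0.41 (SE 0.25, limma adjusted p = 0.198). Under column-total scaling this last difference was 0.66 and passed (limma adjusted p = 0.0478), where the median over every tested gene was 0.26.

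Cd79b (ENSMUSG00000040592, chromosome 11, 106311341 to 106314762, minus strand) was 1819, 2023 and 1777 in the WT libraries, 1772, 2221 and 2045 in the KI libraries, and 2756, 2469 and 4014 in those of KI_Chd7del. WT and KI could not be separated (difference 0.10, SE 0.16, limma adjusted p = 0.622), and KI_Chd7del was above both. The rise over KI was 0.59 (SE 0.16, limma adjusted p = 0.0197) and that over WT was 0.69 (SE 0.16, limma adjusted p = 0.00742). The 2 chains, which pair in 1 complex, stood nearly level in WT, with Cd79b at 1.01 to 1.07 of Cd79a, and apart in KI (1.39 to 1.78) and KI_Chd7del (1.14 to 1.37).

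Blnk (ENSMUSG00000061132, chromosome 19, 40928927 to 40994535, minus strand) had its highest values in KI, whereas the other 9 genes had their highest mean in KI_Chd7del. It was 753, 705 and 611 in the WT libraries, 4568, 4046 and 6295 in the KI libraries, and 2751, 1897 and 3560 in those of KI_Chd7del. The 3 groups did not overlap. The rise in KI over WT was 2.83 (SE 0.23, limma adjusted p = 8.33e-06), a ratio of 7.1, and against KI the KI_Chd7del value fell by 0.88 on the log2 scale (SE 0.23, limma adjusted p = 0.0142). Blnk is also expressed in monocytes and macrophages. The summed level of 10 monocyte and macrophage markers was 53507 to 61823 for WT, 184441 to 199065 for KI and 95231 to 103345 for KI_Chd7del, the same order as Blnk. Of these 10 markers, 8 rose and 1 fell in KI against WT, where 31.8% of all tested genes rose and 27.2% fell. In KI_Chd7del against KI, 1 rose and 8 fell, beside 17.5% and 22.9%. Of the 10, 0 were at 0 in all libraries of any group. Ccr2, a chemokine receptor of monocytes, was 2143 to 2872, 32920 to 37989 and 5567 to 8375 in the same order of groups, and Ly86, which pairs with a toll-like receptor relative, was 1222 to 1273, 6985 to 8127 and 3470 to 3653. This order of groups was not particular to monocytes. The summed mast cell and basophil markers had it too, at 12540 to 14763 for WT, 100377 to 158468 for KI and 43281 to 61643 for KI_Chd7del. In KI both sums were lowest in library 2, as was Blnk. In KI_Chd7del both sums were highest in library 2 (103345 and 61643), where Blnk was lowest. The part of monocytes, mast cells or basophils in the values of Blnk was not tested.

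The transcription factors were Ebf1 and Pax5. Ebf1 (ENSMUSG00000057098, chromosome 11, 44617317 to 45008091, plus strand) was 431, 418 and 344 in the WT libraries, 730, 1157 and 996 in the KI libraries, and 1587, 1154 and 2459 in those of KI_Chd7del. All KI libraries exceeded all WT libraries, and KI_Chd7del library 2 lay just below KI library 2. The rise in KI over WT was 1.25 (SE 0.26, limma adjusted p = 0.00262), a ratio of 2.38. That of KI_Chd7del over KI, 0.81 (SE 0.26, limma adjusted p = 0.0356), no longer passed in 8 of the 22 alternative settings, among them each fit without KI library 1 (limma adjusted p = 0.119), KI library 3 (limma adjusted p = 0.0692), KI_Chd7del library 1 (limma adjusted p = 0.0622), KI_Chd7del library 3 (limma adjusted p = 0.0931) or WT library 2 (limma adjusted p = 0.0518).

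Pax5 (ENSMUSG00000014030, chromosome 4, 44524757 to 44710487, minus strand) was 206, 236 and 182 in the WT libraries, 201, 332 and 288 in the KI libraries, and 411, 329 and 721 in those of KI_Chd7del. KI spanned the WT range and reached into that of KI_Chd7del. The difference of KI from WT was 0.37 (SE 0.29, limma adjusted p = 0.289), that of KI_Chd7del from KI was 0.78 (SE 0.29, limma adjusted p = 0.0553) and that of KI_Chd7del from WT was 1.15 (SE 0.29, limma adjusted p = 0.00903), of which the last alone passed. The middle value passed in 6 of the 22 alternative settings, among them those without KI library 2 (limma adjusted p = 0.0475) or KI_Chd7del library 2 (limma adjusted p = 0.0271). Pax5 shares 761 exon bases with genes on the opposite strand, of which Gm12462 was 0 in every library and 5730488B01Rik was 2 to 41.

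Rag1 (ENSMUSG00000061311, chromosome 2, 101638282 to 101649501, minus strand) was 461, 405 and 261 in the WT libraries, 1513, 2755 and 2701 in the KI libraries, and 2886, 2026 and 6136 in those of KI_Chd7del. Every knock-in library was more than any WT library, and the 2 knock-in groups overlapped. The rise in KI over WT was 2.61 (SE 0.40, limma adjusted p = 0.000433), a ratio of 6.12, and that in KI_Chd7del over WT was 3.17 (SE 0.40, limma adjusted p = 0.000262), a ratio of 9.01. The difference between the knock-in groups, 0.56 (SE 0.40), did not pass (limma adjusted p = 0.295), and KI_Chd7del library 3 was 3.03 times library 2. Rag1 shares 80 exon bases with B230118H07Rik on the same strand, which was 786 to 956 for WT, 303 to 333 for KI and 527 to 597 for KI_Chd7del. Plasmacytoid dendritic cells can also carry Rag transcripts. The 8 markers of that cell type summed to 3036 to 3135 for WT and 5681 to 6036 for KI. In KI_Chd7del libraries 1 to 3 the sums were 5990, 6723 and 10135. Of 7 tested, 6 rose and 0 fell in KI against WT, beside 31.8% and 27.2% of all tested genes. In KI_Chd7del against KI, 1 rose and 0 fell, beside 17.5% and 22.9%, and 1 was lower at an unadjusted p under 0.05. Of the 8 markers, 0 were at 0 in all libraries of any group. Among them, Siglech, a surface lectin, was 58 to 115 for WT and 303 to 364 for KI. It was 915, 374 and 338 in KI_Chd7del libraries 1 to 3, lowest in library 3, where Rag1 was highest. The high sum of library 3 lay largely in Irf7, named after its values were seen, at 639, 1983 and 4029 in the same libraries. The part of plasmacytoid dendritic cells in Rag1 was not tested.

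**Figure D2:**
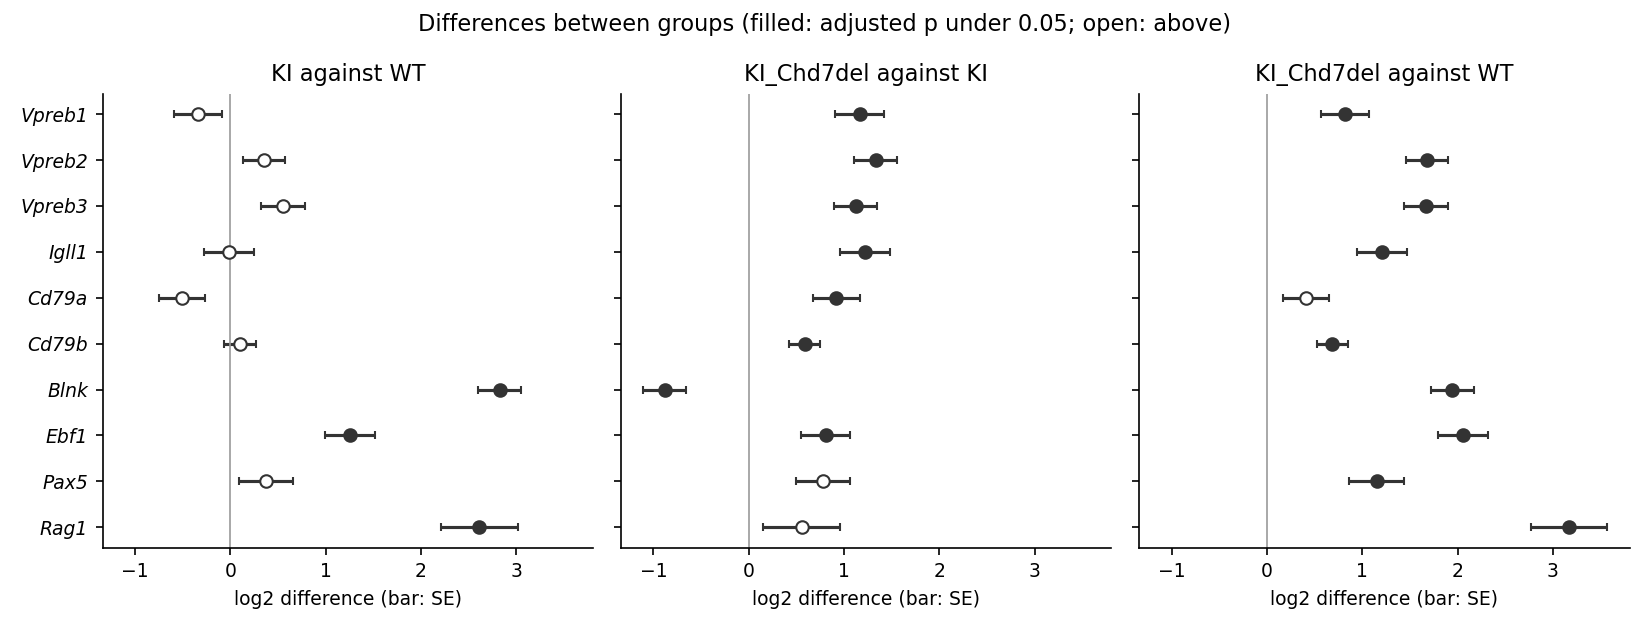
Log2 differences of the 10 genes in the 3 comparisons (horizontal axis; bars are the SE from limma). Filled points passed at an adjusted p under 0.05. Blnk is to the right of 0 in KI against WT (2.83) and to the left in KI_Chd7del against KI (-0.88).

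Upstream sequences are shown for 3 genes: Rag1, which rose in KI against WT, and Igll1 and Cd79a, which did not pass there. Igll1 and Cd79a both rose in KI_Chd7del against KI, and of these 2 only Igll1 also rose in KI_Chd7del against WT. The sequences were read from RefSeq (GRCm38.p6), in which 9 of 10 genes matched by symbol. They run 5′ to 3′ on the strand of the gene, cut where an exon begins. Capitals mark matches to 2 motifs searched on both strands: TCCCNNGGG or TCCCNNGAG, as bound by EBF1, and TGTGGT, as bound by RUNX factors with CBFB. The motifs were chosen with the values of these genes known. All 3 genes shown held a match. The windows of Blnk, which rose in KI against WT, and of Pax5 and Vpreb1 held neither motif.
Rag1, chr2:101649533-101649782, minus strand: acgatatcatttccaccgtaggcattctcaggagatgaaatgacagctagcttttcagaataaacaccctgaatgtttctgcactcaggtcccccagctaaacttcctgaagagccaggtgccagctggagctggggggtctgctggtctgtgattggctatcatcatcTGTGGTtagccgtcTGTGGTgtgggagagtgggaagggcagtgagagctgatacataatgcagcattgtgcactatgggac
Igll1, chr16:16863986-16864235, minus strand: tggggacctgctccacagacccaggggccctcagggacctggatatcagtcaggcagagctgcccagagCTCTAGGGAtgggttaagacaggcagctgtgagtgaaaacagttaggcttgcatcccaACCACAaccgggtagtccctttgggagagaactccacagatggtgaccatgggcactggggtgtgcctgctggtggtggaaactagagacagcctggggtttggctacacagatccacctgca
Cd79a, chr7:24897247-24897380, plus strand: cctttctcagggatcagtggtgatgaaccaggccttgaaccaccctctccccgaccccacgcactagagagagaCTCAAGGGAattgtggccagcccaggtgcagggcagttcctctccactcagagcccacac

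In the window of Rag1 the RUNX letters occurred at 81 and 67 bases before the start. In that of Igll1 the EBF1 letters occurred on the opposite strand as CTCTAGGGA, 181 bases before the start, and the RUNX letters on the opposite strand as ACCACA, 123 bases before. In that of Cd79a the EBF1 letters occurred on the opposite strand as CTCAAGGGA. Over the 250 bases upstream, 3 of the 9 genes with a window held the EBF1 letters (Cd79a, Igll1 and Vpreb2) and 4 of 9 held the RUNX letters (Rag1, Vpreb3, Ebf1 and Igll1). These counts use the whole windows, and the matches of Vpreb2 and Ebf1 lay past the first base that GENCODE places in an exon. Of 32536 such windows in the table, 11.2% held the EBF1 letters and 14.0% the RUNX letters. These shares are per window, whereas the counts above are per gene. Ebf1 had windows starting at 44617850 and 44619978, and only that at 44617850 held the RUNX letters. These matches are a description of the letters and not of binding.

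Over the 10 genes, the median difference was 0.36 in KI against WT beside 0.02 for all tested genes, 0.86 beside -0.01 in KI_Chd7del against KI, and 1.44 beside 0.02 in KI_Chd7del against WT. In KI against WT, the count at an unadjusted p under 0.05 was 4 higher, with Vpreb3 added, and none lower. The 2 groups did not overlap for 4 genes higher and 1 lower in KI against WT (35.9% and 31.8% of all tested genes), for 6 higher and 1 lower in KI_Chd7del against KI (23.8% and 28.2%) and for 9 higher and 0 lower in KI_Chd7del against WT (28.9% and 28.8%). The 10 genes were chosen with results of these data known, and they were measured in the same libraries, so these counts are not 10 separate pieces of evidence.

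The order of the libraries within a group was shared by most of the 10 genes, with Blnk as an exception in KI, where library 2 was its lowest. KI_Chd7del library 3 was the highest of its group for 10 of 10 genes and library 2 the lowest for 10 of 10, with summed values of 26478 and 13048, and library 1 between them at 16346. KI library 1 was the lowest of its group for 8 of 10 and library 2 the highest for 9 of 10, while WT library 3 was the lowest for 9 of 10. The spread was widest in KI_Chd7del for 9 of 10 genes, where the highest library was 1.63 to 3.03 times the lowest, and the exception was Vpreb2 (1.48 times, against 1.51 times in KI). In WT it was 1.14 to 1.77 times. Without KI_Chd7del library 3, the gene that ceased to pass in KI_Chd7del against KI was Ebf1, leaving 6 higher. Without KI library 1, Cd79a (limma adjusted p = 0.0614), Cd79b (limma adjusted p = 0.071) and Ebf1 ceased to pass. That left 4 higher, which were Vpreb1, Vpreb2, Vpreb3 and Igll1. In KI_Chd7del against WT, Vpreb1 ceased to pass without KI_Chd7del library 3, WT library 2 or WT library 3 (limma adjusted p between 0.0638 and 0.0764), leaving 8 higher. Over the 9 libraries, Pearson correlations of log2 values were 0.261 to 0.982 (median 0.862) for the 36 pairs without Blnk and -0.207 to 0.873 (median 0.386) for the 9 pairs with it. Of deviations from the group means, which leave out the differences between groups, they were 0.468 to 0.984 (median 0.903) without Blnk and 0.206 to 0.749 (median 0.633) with it. These correlations share libraries and scaling and are given as a description.

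Ratios within a library remove such shared swings only so far as both genes change by the same fold. Cd79a, which is expressed throughout the B lineage, was taken as the reference after the values had been seen. Rag1 stood at 0.158 to 0.269 of Cd79a for WT, 1.52 to 2.2 for KI and 1.13 to 1.74 for KI_Chd7del. In KI_Chd7del this ratio was still highest in library 3 and lowest in library 2. Ebf1 stood at 0.208 to 0.252 for WT, 0.723 to 0.81 for KI and 0.641 to 0.762 for KI_Chd7del, and Pax5 at 0.11 to 0.12, 0.201 to 0.234 and 0.183 to 0.204. For these 3 genes, and for Vpreb3 (0.248 to 0.316, 0.542 to 0.642 and 0.616 to 0.714), both knock-in groups lay above WT and overlapped each other. Igll1 differed from them, with 0.336 to 0.491 for WT, 0.524 to 0.593 for KI and 0.671 to 0.72 for KI_Chd7del, 3 separate ranges. Blnk also had 3 separate ranges, with KI the highest: 0.353 to 0.44 for WT, 2.53 to 5.12 for KI and 1.01 to 1.32 for KI_Chd7del. Ratios of Vpreb1 and Vpreb2 to Cd79a were not taken. These ratios were chosen after the values had been seen and are a description, with no test. A ratio shows unequal change and not that Cd79a was constant.

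**Figure D3:**
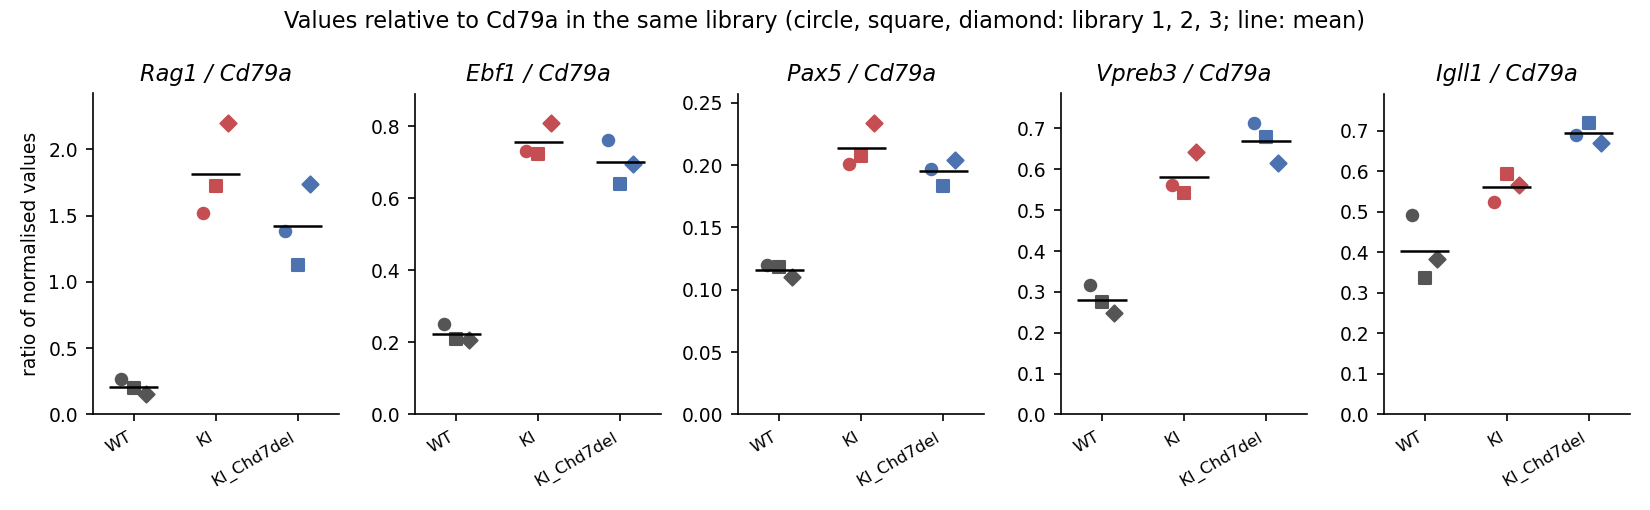
Value of each of 5 genes divided by that of Cd79a in the same library (vertical axis, ratio; a separate scale for each gene). Circles, squares and diamonds are libraries 1, 2 and 3 and the line is the mean. Rag1 relative to Cd79a is at most 0.269 in WT and at least 1.13 in both knock-in groups.

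Divided by exon length, the order of the genes can be compared within a group. Cd79b was the highest per kilobase in each group (mean 1309 in WT, 1406 in KI and 2152 in KI_Chd7del) and Pax5 the lowest (23.5, 30.9 and 55.0), apart from its neighbour Ebf1 in each. Cd79a came next after Cd79b in WT (1227), overlapping it, and in KI (876), where its libraries overlapped those of Vpreb3 (861), and those of Vpreb3 overlapped those of Blnk (830). In KI_Chd7del, Vpreb3 (1896) came before Cd79a (1697), with overlapping libraries. Blnk had rank 6 of 10 in WT (115), 4 in KI and 7 in KI_Chd7del (457), and Rag1 had rank 8 in WT (56.9), 5 in KI (352) and 6 in KI_Chd7del (557). Igll1 and Vpreb1, the 2 parts of the surrogate light chain, were neighbours in order in each group and overlapped in each: 330 and 400 for WT, 334 and 321 for KI and 786 and 732 for KI_Chd7del.

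Other genes of the same steps were taken from lists that were likewise written with results of these data known. Beside each count, 31.8% of all tested genes rose and 27.2% fell in KI against WT. These shares were 17.5% and 22.9% in KI_Chd7del against KI, and 24.0% and 24.3% in KI_Chd7del against WT. Of 16 other B lineage transcription factors, 7 rose and 5 fell in KI against WT, 8 rose and 1 fell in KI_Chd7del against KI, and 11 rose and 3 fell in KI_Chd7del against WT, with medians of 0.20, 0.50 and 0.64. Irf8, which acts in B cell and in myeloid precursors, was 3403 to 4966 for WT, 7074 to 8749 for KI and 11208 to 12341 for KI_Chd7del, a rise at each comparison. Irf4, which limits pre-B cell growth and is also used by myeloid cells, had the order of groups of Blnk, at 418 to 531, 1864 to 2757 and 559 to 958. In KI against WT, Ikzf1, which encodes Ikaros, fell by 0.77 on the log2 scale (SE 0.07, limma adjusted p = 1.26e-05) and rose in KI_Chd7del against KI by 0.41 (SE 0.07, limma adjusted p = 0.00176). Id2, an inhibitor of the E proteins that B cells need, was 4002 to 4229 for WT, 1100 to 1605 for KI and 2005 to 2971 for KI_Chd7del.

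Of 14 other V(D)J recombination genes, 5 rose and 6 fell in KI against WT, 5 rose and 2 fell in KI_Chd7del against KI, and 4 rose and 2 fell in KI_Chd7del against WT, with medians of -0.13, 0.17 and 0.09. Dntt, the polymerase that adds bases at the joints, was 1776, 1062 and 1075 in the WT libraries, 2568, 3477 and 3730 in the KI libraries, and 5179, 5969 and 8447 in those of KI_Chd7del. The 3 groups did not overlap, and Dntt rose by 1.35 in KI over WT (SE 0.24, limma adjusted p = 0.00115) and by 0.99 in KI_Chd7del over KI (SE 0.24, limma adjusted p = 0.0115). Rag2, named after its values were seen as the partner of Rag1, was 63 to 113 for WT, 176 to 313 for KI and 214 to 603 for KI_Chd7del. It rose in KI by 1.56 (SE 0.39, limma adjusted p = 0.0071), and the knock-in groups overlapped, as for Rag1. Without KI_Chd7del library 2, the lowest of its group for the 10 genes, Rag2 passed between the knock-in groups (limma adjusted p = 0.0224). Genes of the list with general tasks went both ways: Atm, the kinase that senses DNA breaks, rose in KI over WT by 1.04 (SE 0.07, limma adjusted p = 4.74e-06), while Hmgb2, a DNA-bending protein, fell by 0.82 (SE 0.08, limma adjusted p = 3.27e-05), as did the joining factor Nhej1 (which fell by 0.82, SE 0.13, limma adjusted p = 0.00057).

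Of 9 lymphoid progenitor genes, 6 rose and 3 fell in KI against WT, 4 rose and 0 fell in KI_Chd7del against KI, and 6 rose and 1 fell in KI_Chd7del against WT, with medians of 1.35, 0.67 and 1.09. Flt3, a receptor tyrosine kinase of early lymphoid and myeloid progenitors, was 803, 564 and 631 in the WT libraries, 2138, 1782 and 2051 in the KI libraries, and 3371, 3005 and 3094 in those of KI_Chd7del, with no overlap. Il7r, the receptor chain for the growth factor of B cell precursors, was 346, 270 and 254 in the WT libraries, 756, 1209 and 1126 in the KI libraries, and 1467, 981 and 1772 in those of KI_Chd7del. It rose in KI over WT by 1.81 (SE 0.24, limma adjusted p = 0.00018), and its difference of KI_Chd7del from KI, 0.44 (SE 0.24), did not pass (limma adjusted p = 0.178), except without KI_Chd7del library 2 (limma adjusted p = 0.0466). Satb1 was 1 of the 3 that fell in KI against WT, by 0.95 on the log2 scale (SE 0.11, limma adjusted p = 7.02e-05). Its values were 2734 to 3098 for WT, 1340 to 1706 for KI and 2569 to 3225 for KI_Chd7del. At an unadjusted p under 0.05, 1 gene of this list and 1 of the next were lower in KI_Chd7del against KI.

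Of 12 surface proteins of B cell precursors, Il7r among them, 2 rose and 4 fell in KI against WT, 4 rose and 0 fell in KI_Chd7del against KI, and 3 rose and 6 fell in KI_Chd7del against WT, with medians of -0.77, 0.16 and -0.64. Cd93, which marks immature B cells and also other progenitors, rose with Il7r in KI over WT, by 1.26 (SE 0.11, limma adjusted p = 1.11e-05). Cd72, a B cell co-receptor, was 377 to 421 for WT, 81 to 100 for KI and 142 to 270 for KI_Chd7del, lowest in KI. Cd24a, a surface glycoprotein also found on neutrophils and red cell precursors, had the same order of groups, at 55825 to 62511, 10746 to 19188 and 27631 to 32167. Neutrophil markers, whose shares of the totals are given above, had that order too, and their part in Cd24a was not tested.

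Of 15 kinases and adaptors downstream of the receptor, 7 rose and 7 fell in KI against WT, 3 rose and 3 fell in KI_Chd7del against KI, and 5 rose and 7 fell in KI_Chd7del against WT, with medians of -0.22, -0.11 and -0.06. Blk, a B cell kinase of the SRC family, was 265, 324 and 257 in the WT libraries, 26, 16 and 19 in the KI libraries, and 57, 87 and 78 in those of KI_Chd7del. In KI against WT it fell by 3.75 on the log2 scale (SE 0.23, limma adjusted p = 2.02e-06) and rose in KI_Chd7del against KI by 1.82 (SE 0.23, limma adjusted p = 0.000526), opposite in both to Blnk. Inpp5d, a lipid phosphatase of most blood cells, was 9322 to 10367, 18336 to 21998 and 13469 to 13637, the order of Blnk and of the monocyte markers. Pik3cd, a lipid kinase of white blood cells, rose in KI over WT by 0.84 (SE 0.06, limma adjusted p = 4.3e-06), and so did the adaptor Dapp1, by 0.86 (SE 0.10, limma adjusted p = 5.69e-05).

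Of 7 genes that PAX5 is known to repress, 6 rose and 1 fell in KI against WT, 1 rose and 4 fell in KI_Chd7del against KI, and 4 rose and 1 fell in KI_Chd7del against WT, with medians of 1.59, -0.43 and 0.90. Grap2, an adaptor of T and myeloid cells, was 188 to 231 for WT, 6973 to 11627 for KI and 733 to 1565 for KI_Chd7del, and Csf1r, the receptor for macrophage colony-stimulating factor, was 3843 to 4758, 23566 to 31256 and 11177 to 14434. Csf1r is also among the monocyte markers and Flt3 among the lymphoid progenitor genes, so this list overlaps others, and the part of monocytes in it was not tested.

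Of 9 mature B cell markers, 1 rose and 8 fell in KI against WT (median -2.65), 3 rose and 1 fell in KI_Chd7del against KI (median 0.57), and 1 rose and 7 fell in KI_Chd7del against WT (median -1.87). Fcer2a, a low-affinity IgE receptor of mature B cells, was 159, 190 and 166 in the WT libraries, 13, 14 and 27 in the KI libraries, and 24, 37 and 62 in those of KI_Chd7del. Cxcr5, the homing receptor for B cell follicles, was 108 to 159, 14 to 26 and 26 to 45, and Cd37, a tetraspanin, was 6352 to 7558, 2869 to 3834 and 4762 to 5193. The member that rose in KI was Cd74, the invariant chain of all antigen-presenting cells, at 8582 to 15738, 55098 to 63744 and 15447 to 25879, in the order of the monocyte markers. As Cd79a and Cd79b are expressed in mature B cells as well, the fall of these markers stands beside the values of those 2 genes, and its part in them was not tested.

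Of 4 immunoglobulin constant genes found, 0 rose and 3 fell in KI against WT, and 0 rose and 0 fell in KI_Chd7del against KI. In KI_Chd7del against WT, 0 rose and 3 fell, and the medians were -1.52, -0.69 and -2.00 in this order. At an unadjusted p under 0.05, too, none of the 4 passed by limma in KI_Chd7del against KI. Ighm did not pass in KI against WT (limma adjusted p = 0.324) or in KI_Chd7del against WT (limma adjusted p = 0.107). It was 60231 to 258741 for WT, 32196 to 104351 for KI and 25451 to 55458 for KI_Chd7del, so that WT and KI overlapped. Ighd, the constant gene of IgD, was 412, 758 and 521 in the WT libraries, 74, 148 and 140 in the KI libraries, and 171, 78 and 248 in those of KI_Chd7del. Igkc, the kappa light chain constant gene, was 54315, 60180 and 138985 in the WT libraries, 53774, 30186 and 17849 in the KI libraries, and 10556, 25333 and 19822 in those of KI_Chd7del. WT library 3 was the highest and KI library 1 was almost level with WT library 1, so the groups were separated narrowly for Igkc, which in KI fell by 1.32 on the log2 scale (SE 0.49, limma adjusted p = 0.0418). That fall ceased to pass without WT library 2 or 3, KI library 2 or 3, or KI_Chd7del library 3 (limma adjusted p between 0.053 and 0.146). Iglc2 fell in KI by 1.72 (SE 0.51, limma adjusted p = 0.0163). Its fall ceased to pass without WT library 3 (limma adjusted p = 0.0631) or KI library 3 (limma adjusted p = 0.0518). Iglc1 and Iglc3 were not analysed here.

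**Figure D4:**
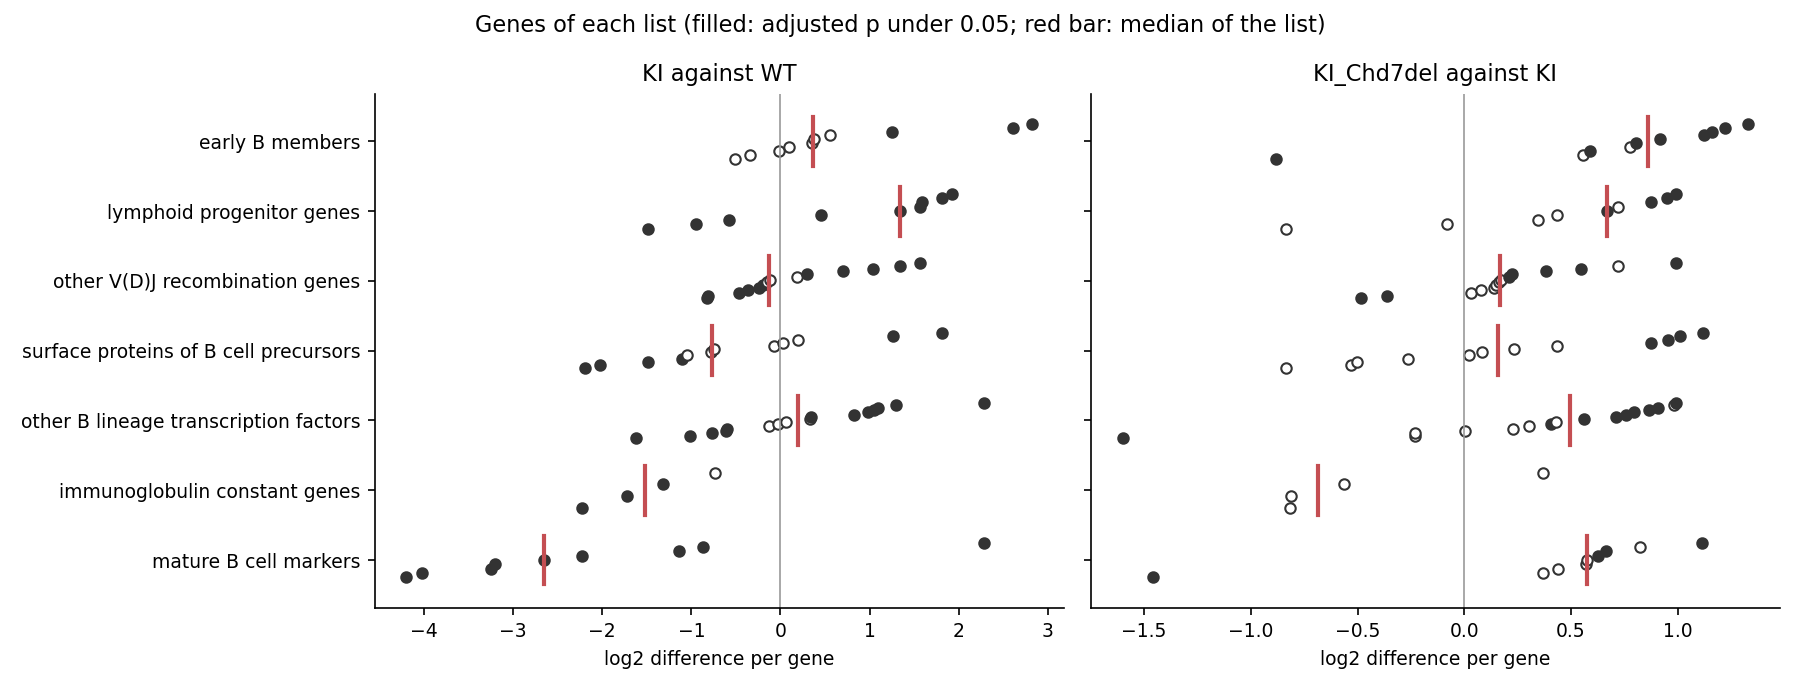
Log2 difference of each gene (horizontal axis) in KI against WT and in KI_Chd7del against KI, for the 10 early B genes and 6 lists; filled points passed at an adjusted p under 0.05 and the red bar is the median of the list. In KI against WT the medians run from 1.35 for lymphoid progenitor genes to -2.65 for mature B cell markers.

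Markers of other cell types are given by their counts in KI against WT and then in KI_Chd7del against KI. In that order, 31.8% of all tested genes rose and 27.2% fell, then 17.5% rose and 22.9% fell. Of 14 neutrophil markers, 0 rose and 12 fell, then 12 rose and 0 fell. Of 9 erythroid markers, 5 rose and 2 fell, then 0 rose and 8 fell. Of 9 mast cell and basophil markers, 7 rose and 2 fell, then 2 rose and 7 fell. Of 8 megakaryocyte markers, 2 rose and 5 fell, then 6 rose and 1 fell. Of 12 T cell markers, 2 rose and 1 fell, then 0 rose and 2 fell. Of 8 NK cell markers, 0 rose and 3 fell, then 2 rose and 2 fell. Of 7 plasma cell markers, 2 rose and 2 fell, then 1 rose and 2 fell. Each 0 among these counts by limma was also 0 at an unadjusted p under 0.05. The part of these cell types in the values of the 10 genes was not tested. When all values were rescaled to the column total, the median of all tested genes moved to 0.25 in KI against WT and to 0.26 in KI_Chd7del against WT, and the share of calls that were higher moved from 53.9% to 74.3% and from 49.7% to 78.9%. In KI_Chd7del against KI that share moved from 43.4% to 57.6% with upper-quartile factors, 57.0% with quantile normalisation and 53.6% with the column total less the neutrophil markers.

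The genes most like the 10 in pattern were found by correlation with the mean of their standardised log2 values over the 9 libraries, among genes with a mean of at least 50. Among the most alike were Lef1 (0.978), Sorcs2 (0.968), Akap12 (0.967), Gimap1 (0.967), Fbxw10 (0.964), S1pr1 (0.961) and Sytl4 (0.957). Among the 10 genes themselves this correlation was highest for Vpreb3 (0.989) and Pax5 (0.986) and lowest for Blnk (0.504). Lef1, an HMG-box transcription factor of lymphoid precursors, was 338, 314 and 287 in the WT libraries, 278, 462 and 471 in the KI libraries, and 812, 545 and 1081 in those of KI_Chd7del. Lef1 shared the high KI_Chd7del library 3 with the 10 genes, and the low KI library 1 with 8 of them. S1pr1, a receptor for sphingosine-1-phosphate on lymphocytes, was 162 to 229, 226 to 263 and 367 to 565, and Gimap1, a lymphocyte GTPase, was 177 to 184, 186 to 237 and 330 to 495. These genes were picked for their likeness, so their values are a description.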

How the data were processed

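RNA-seq values of c-KIT+ marrow were read from 1 deposited table with 43629 identifiers and 9 libraries. These deposited values are treated as a score: regular gaps among the low values show that the authors had scaled each library by a size factor and then rounded, so no count test was run. The submitters' processing notes name DESeq2, RSEM, STAR 2.4 and CASAVA 1.8.2 with GRCm38, per the labels, in roles not given in the sources used here. Symbols, positions and coding sequences came from GENCODE M21 (42462 identifiers with a symbol), upstream sequences from RefSeq GRCm38.p6.

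The 15997 genes that reached 10 in 3 or more libraries were fitted with limma 3.58.1 (R 4.3.3, eBayes with trend) on log2(value + 1), all 9 libraries in 3 groups, 2-sided, adjusted by Benjamini-Hochberg at 0.05; a fold on this scale understates changes of low genes. The fit was also run on simulated counts with few changed genes and a fixed spread. That setting differs from these data, so the run cannot show how the fit performs on them. The 10 genes, the lists and the tests were chosen with earlier results of these data known. From each list the text names genes among the 4 with the smallest adjusted p in any comparison, beside those most alike in pattern; 1 gene is not reported here. Within groups, squared differences between libraries had medians of 2.85 to 8.09 times counting noise. Alternatives were other filters, pseudocounts of 0.5, 4 and 16, scalings, limma without the trend, 2-group fits, a replicate block and each library left out. Tables and plots were made with Python 3.11.15, numpy 2.4.6, pandas 2.3.3 and matplotlib 3.10.9.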

Additional observations from a re-analysis of the deposited data

How the results depend on the processing

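Over 22 alternatives, 628 of 660 values of the 10 genes kept their direction and their side of the threshold, 15 newly passed, 13 ceased to pass and 4 changed sign. Leaving out 1 library at a time gave 3 to 4 of the 10 genes higher and 0 to 1 lower in KI against WT, 4 to 8 higher and 1 lower in KI_Chd7del against KI, and 8 to 9 higher and 0 lower in KI_Chd7del against WT. In KI_Chd7del against WT, 10 were higher with the column total, Cd79a among them. In KI against WT, 1 gene (Cd79a) was lower in the fit of only the 2 groups compared. The sign changes were in values that had not passed: in KI against WT, Igll1 was 0.21 with the column total and 0.0535 with the column total less neutrophil markers, and Gimap1 was -0.0268 and Fbxw10 -0.11 with quantile normalisation. Leaving out 1 library at a time, Igll1 ran from -0.23 to 0.20 (above 0 without WT library 1 or KI library 1). In KI_Chd7del against KI, Atm ran from -0.0355 to 0.0939 (below 0 without KI_Chd7del library 2) and Nhej1 from -0.0074 to 0.17 (below 0 without KI_Chd7del library 1). The cause of these changes was not tested.

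Correlations of deviations between libraries with the same replicate number were -0.153 to 0.109. Between libraries with different numbers they were -0.167 to 0.208. With 3 libraries a group, these values cannot show whether libraries with the same number were paired. With a replicate block, 3 of the 10 genes were higher in KI against WT, 6 in KI_Chd7del against KI and 9 in KI_Chd7del against WT, with 0, 1 and 0 lower. Ebf1 in KI_Chd7del against KI then had a limma adjusted p of 0.0581, and 9121, 5952 and 7411 genes were called over the 3 comparisons. With 3 libraries a group and values of 58 to 110 for Vpreb2 in WT and KI, counting limits small differences of that gene.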
